A study of Saccharomyces cerevisiae with 4 samples.

Results

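The transcripts examined here encode the factors that carry a yeast ribosome through initiation, elongation and termination of translation. The set was defined by gene symbol: 41 genes named as subunits of initiation factors, elongation factors, release factors and close partners were looked up in the symbols of the array platform, and 38 of them had a probe among 6388 gene probes (5326 of which carry 1 symbol). No measured value entered that rule, but the genes were listed with earlier results of these data known. Of the 38, 19 belong to eIF2, eIF2B, eIF3 and eIF4 (20 named), 10 are elongation or release factors (12 named) and 9 are other initiation factors, cap and tail partners or enzymes of the initiator tRNA (9 named). TIF1, TEF1 and EFT1 had no probe under their own symbol. Their proteins are identical to those of TIF2, TEF2 and EFT2, and the probe of each of these may read both transcripts.

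Translation starts when eIF2 brings the initiator tRNA to the small ribosomal subunit as a complex with GTP, while eIF4 proteins prepare the capped mRNA and eIF3 holds the parts together. eIF2B exchanges the GDP left on eIF2 for GTP. Phosphorylation of eIF2 blocks this exchange, which is how yeast cells starved of amino acids lower initiation. In elongation, eEF1A delivers tRNAs, its exchange factor eEF1B recharges it, eEF2 moves the ribosome along and the fungal factor eEF3 clears spent tRNA, while eIF5A helps the ribosome past difficult peptide bonds. The release factors eRF1 and eRF3 end the chain at a stop codon.

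All samples were Saccharomyces cerevisiae BY4742, a haploid laboratory strain, wild type and carrying the plasmid YCpLac111, which bears the LEU2 marker. Cells were grown for 2 doublings in synthetic complete medium made without phosphate, with glucose, to which either 10 mM phosphate (standard phosphate, 2 arrays) or 75 uM phosphate (low phosphate, 2 arrays) was added. Each array set amplified RNA of one sample against a common reference pool of RNA from the wild-type strain, for which no plasmid is named. The study used this growth condition as an example of an environmental perturbation. In each group, array a carried the sample in Cy3 and array b carried it in Cy5, so that replicate and dye orientation cannot be told apart within a group. The deposited protocols speak of independent cultures, but the paired names of the arrays leave it unsettled whether a and b of a group share a culture. If they do, the p-values below measure technical spread only.

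Values are log2 ratios of sample over reference after background correction and loess normalisation, and a difference is the mean of the low phosphate arrays minus the mean of the standard phosphate arrays. Differences were tested with limma across all gene probes, two-sided, with Benjamini-Hochberg adjustment, and every adjusted p given is from that fit. The median sample signal was 254 to 383 against backgrounds of 41 to 49, 4662 probes were above background on every array, and LEU2 lay above the reference on all 4 arrays (log2 ratios of 0.573 to 2.61). Low phosphate array b stood apart: its ratios had an SD of 0.599 across probes, against 0.197 to 0.27 on the other 3 arrays, and values without it are given beside the results that moved most. In cultures measured in bulk, fewer cells that express a transcript and less of it per cell cannot be told apart, and a ratio is relative to the RNA hybridised.

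Across all 38 measured factors the transcripts were mostly lower in low phosphate. The mean was lower for 33 of 38 factors, against 50% of all probes, and the median difference was -0.424, against 1e-04 over all probes. Both low phosphate arrays lay below both standard arrays for 22 factors (26.8% of all probes) and above them for 4 (26.5% of all probes). The factors that did not overlap upward were TIF4632, EFB1, CAM1 and HYP2. Within each dye orientation, low phosphate was below standard phosphate in both comparisons for 28 factors, against 35.4% of all probes. No single factor passed the test over all probes (0 of 38, with 0.0157% of all probes called), and the lowest adjusted p among them was 0.42. At an unadjusted p under 0.05, 2 factors were lower (SUP45 and GCD10, 5.13% of all probes) and 0 were higher (6.34% of all probes), shares close to or under the background. A difference over 1.7-fold was reached downward by TIF4631 alone (3.6% of all probes), and both criteria together by 0 factors in either direction (1.47% of all probes lower and 1.6% higher). With dye orientation, which is the replicate letter, as a block in the fit, 9 factors were lower at an unadjusted p under 0.05 (6.81% of all probes), SUP45 among them but not GCD10, 1 was also over 1.7-fold lower (TIF4631, 2.58% of all probes), and the lowest adjusted p was 0.323.

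The size of these differences rested on low phosphate array b. Its ratio was below that of low phosphate array a for 36 of 38 factors, against 48.9% of all probes, the exceptions being CAM1 and TEF2. Without array b of low phosphate the median over the factors was -0.119 and 27 of 38 were lower. Without array a of low phosphate the median was -0.732, 29 of 38 factors had an adjusted p under 0.05 (31.8% of all probes) and 17 were over 1.7-fold lower with an unadjusted p under 0.05 (7.61% of all probes). In that fit the remaining low phosphate array is assumed to vary like the standard arrays.

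**Figure D1:**
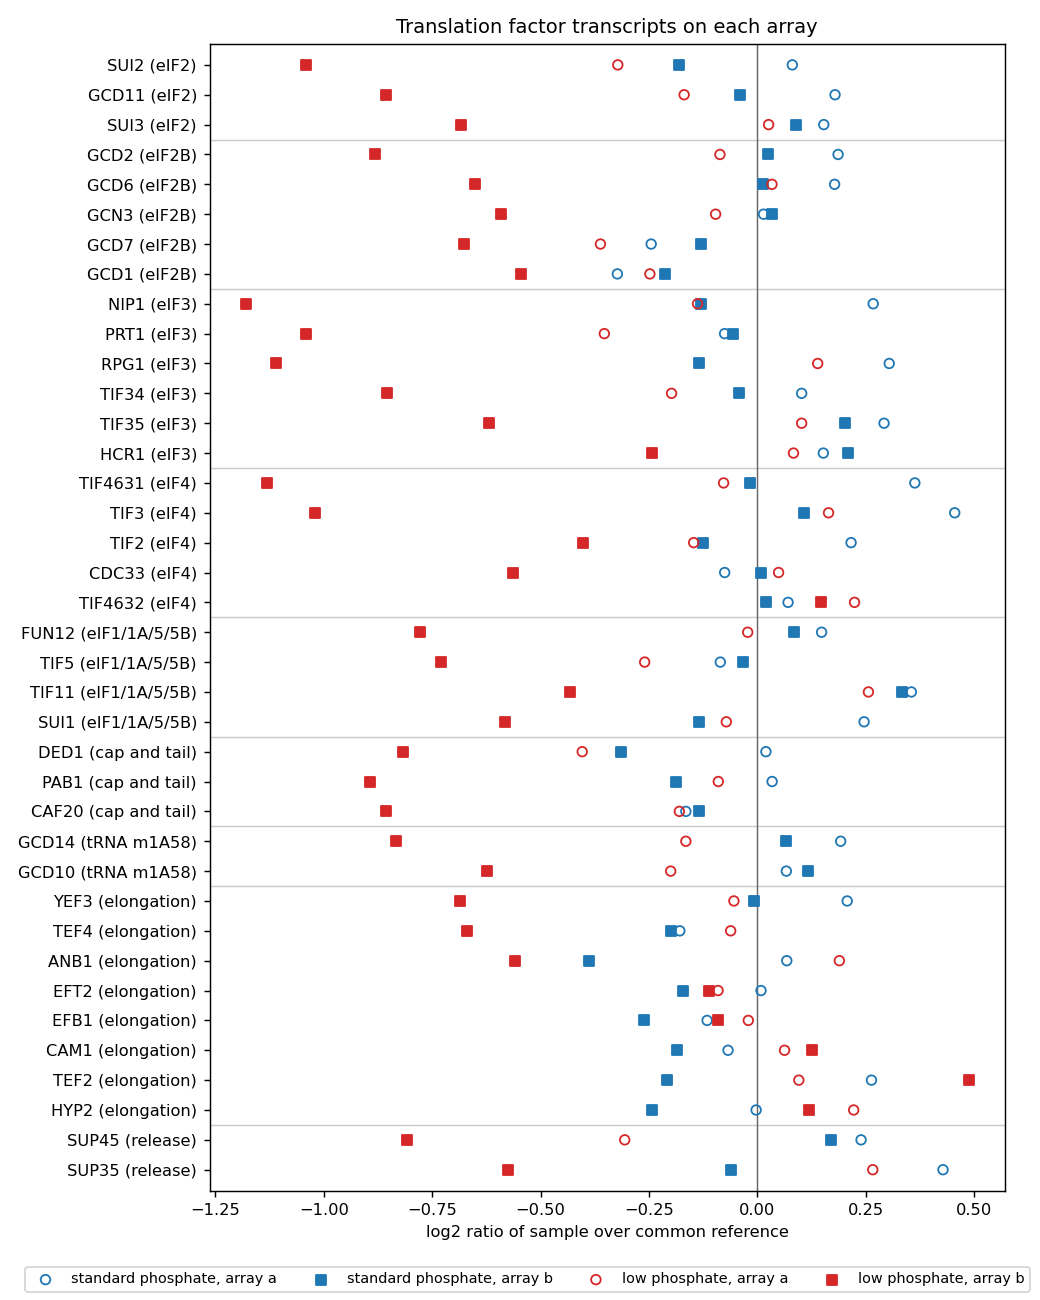
Log2 ratio of sample over common reference (x axis) of the 38 measured translation factors on each of the 4 arrays, ordered by class. Circles are arrays a, squares arrays b, blue standard and red low phosphate. The red squares of array b lie furthest left for most initiation factors, while those of the initiation factor TIF4632 and of CAM1, TEF2 and HYP2 lie to the right of 0.

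Against the common reference itself, the factors had ratios between -0.388 and 0.455 on the standard phosphate arrays, and 0 of 38 passed at an adjusted p under 0.05 (0.0783% of all probes) and 0 at an unadjusted p under 0.05 (11.1% of all probes). The low phosphate samples gave 0 factors at an adjusted p under 0.05 (0.297% of all probes). At an unadjusted p under 0.05, 10 factors were below the reference (11.4% of all probes), namely SUI2, GCD7, GCD1, PRT1, TIF34, TIF5, DED1, CAF20, GCD10 and SUP45, and 1 was above it (15.1% of all probes), TIF4632.

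The 3 subunits of eIF2, the carrier of the initiator tRNA, were all lower in low phosphate. In each case both low arrays were below both standard arrays (26.8% of all probes). SUI2, the alpha subunit that is phosphorylated under amino acid starvation, had ratios of 0.08 and -0.18 on the standard arrays a and b and -0.32 and -1.04 on the low phosphate arrays a and b. Its difference was -0.63 ± 0.285 (SE, n = 2 arrays per group), 1.55-fold lower, with an adjusted p of 0.421 in limma. GCD11, the GTP-binding gamma subunit, had ratios of 0.18 and -0.04 in standard and -0.17 and -0.86 in low phosphate, a difference of -0.58 ± 0.27. SUI3, the beta subunit, had 0.15 and 0.088 in standard and 0.026 and -0.68 in low phosphate, a difference of -0.45 ± 0.27. In all 3 subunits array b of low phosphate was the lowest of the 4 arrays, and without it their differences were -0.272 for SUI2, -0.239 for GCD11 and -0.0948 for SUI3.

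The 5 subunits of eIF2B, the exchange factor of eIF2, were lower as well, with a class median of -0.368. For 3 of them the groups did not overlap (26.8% of all probes). GCD2, the regulatory delta subunit, gave the greatest difference of the complex, with 0.19 and 0.025 in standard and -0.086 and -0.88 in low phosphate, a difference of -0.59 ± 0.30 (SE). GCD6, the catalytic epsilon subunit, differed by -0.405, GCN3, the alpha subunit, by -0.368, and GCD7, the beta subunit, by -0.332. GCD1, the gamma subunit, had nearly equal levels in both groups, with -0.32 and -0.21 in standard and -0.25 and -0.55 in low phosphate (difference -0.13 ± 0.14), and its array a was slightly higher in low phosphate. The adjusted p of the 5 subunits ran from 0.421 to 0.668. Without array b of low phosphate the differences shrank to -0.192 for GCD2, -0.0624 for GCD6, -0.121 for GCN3 and -0.175 for GCD7, and GCD1 turned to 0.0196.

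The 6 measured subunits of eIF3, the scaffold of the initiation complex, were lower in low phosphate in both dye orientations without exception (35.4% of all probes). Their class median was -0.564. NIP1, the c subunit, was at 0.27 and -0.13 in standard and at -0.14 and -1.18 in low phosphate, a difference of -0.73 ± 0.40 (SE), 1.65-fold lower, with an adjusted p of 0.444. PRT1, the b subunit, was steady across the standard arrays at -0.076 and -0.056 and lay at -0.35 and -1.04 in low phosphate, a difference of -0.63 ± 0.26. RPG1, the a subunit, differed by -0.57 ± 0.48 and was the 1 subunit whose groups overlapped. Of all probes, 26.8% had both low arrays below both standard arrays. TIF34 differed by -0.56, TIF35 by -0.507 and HCR1, a loosely bound subunit that also acts in ribosome recycling, by -0.26. Without array b of low phosphate RPG1 was at a difference of 0.0543, while the other 5 stayed between -0.287 and -0.0971.

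The eIF4 proteins, which bind and unwind the capped 5′ end of the mRNA, had the widest spread of differences among the initiation complexes, with an SD over genes of 0.376 against 0.0943 to 0.165 in eIF2, eIF2B and eIF3. TIF4631, the main form of the scaffold eIF4G, had the lowest difference of all 38 factors, with 0.36 and -0.016 in standard and -0.078 and -1.13 in low phosphate. The difference was -0.78 ± 0.41 (SE), 1.72-fold lower, with an unadjusted p of 0.128 and an adjusted p of 0.433. With low phosphate array b left out, the difference was -0.251. SUP45, GCD14, GCD10, PRT1, SUI2 and DED1 were then lower, from -0.51 to -0.256. TIF4632, the gene of the other form of eIF4G, had a higher mean in low phosphate. Its ratios were 0.071 and 0.019 in standard and 0.22 and 0.15 in low phosphate, both low arrays above both standard arrays, for a difference of 0.14 ± 0.09 (adjusted p 0.489). The gap between both forms, TIF4631 minus TIF4632, was 0.292 and -0.0356 in standard and -0.302 and -1.28 in low phosphate. This gap differed by -0.919 between the groups, with an exact two-sided permutation p of 0.333, the smallest that 2 against 2 arrays allow. The TIF4632 probe was the dimmer of the pair, at percentile 38.9 of probe brightness against 92.8 for TIF4631, and its difference stayed between 0.101 and 0.213 under every processing and with every array left out.

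TIF3, or eIF4B, which assists the helicase, was at 0.46 and 0.11 in standard and at 0.16 and -1.02 in low phosphate, a difference of -0.71 ± 0.44 that rested on array b (-0.117 without it). TIF2, the eIF4A helicase, was at 0.22 and -0.125 in standard and at -0.147 and -0.40 in low phosphate, a difference of -0.32 ± 0.17. The difference was -0.36 between the arrays a and -0.28 between the arrays b. Of the 16 initiation subunits lower in both dye orientations, TIF2 alone differed more between the arrays a. Since TIF1 had no probe of its own, the value may stand for both helicase genes, and 2 of its 8 spots were nearly saturated. CDC33, the cap-binding protein eIF4E, differed by -0.22 ± 0.235 with overlapping groups and was higher in low phosphate on the arrays a.

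The factors outside these 4 complexes also lay lower, 9 of 9, each in both dye orientations (35.4% of all probes). Of those that select the start codon and join the subunits, FUN12 (eIF5B, a GTPase) differed by -0.516, TIF5 (eIF5, which triggers GTP hydrolysis on eIF2) by -0.435, TIF11 (eIF1A) by -0.432 and SUI1 (eIF1) by -0.382. DED1, a helicase that helps scanning, differed by -0.463, PAB1, the poly(A)-binding protein, by -0.415, and CAF20, which competes with eIF4G for eIF4E, by -0.369. The gap of DED1 to its paralog DBP1 differed by -0.659 (exact two-sided permutation p 0.333, the smallest possible). The DBP1 probe was dim, at percentile 12.5, and above background on 1 of 4 arrays. GCD14 and GCD10 form the methyltransferase that modifies the initiator tRNA and other tRNAs. GCD14 differed by -0.628 and GCD10 by -0.50 ± 0.17. The ratios of GCD10 were 0.067 and 0.12 in standard and -0.20 and -0.62 in low phosphate, with an unadjusted p of 0.0441 and an adjusted p of 0.42 in limma. Its probe was dim, at percentile 24.3, and above background on 3 of 4 arrays. In the fit lacking low phosphate array b, PAB1 and CAF20 were close to 0, at -0.0137 and -0.0306, TIF11, SUI1, FUN12 and TIF5 were at -0.0885, -0.127, -0.138 and -0.20, and DED1, GCD10 and GCD14 were at -0.256, -0.292 and -0.294.

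**Figure D2:**
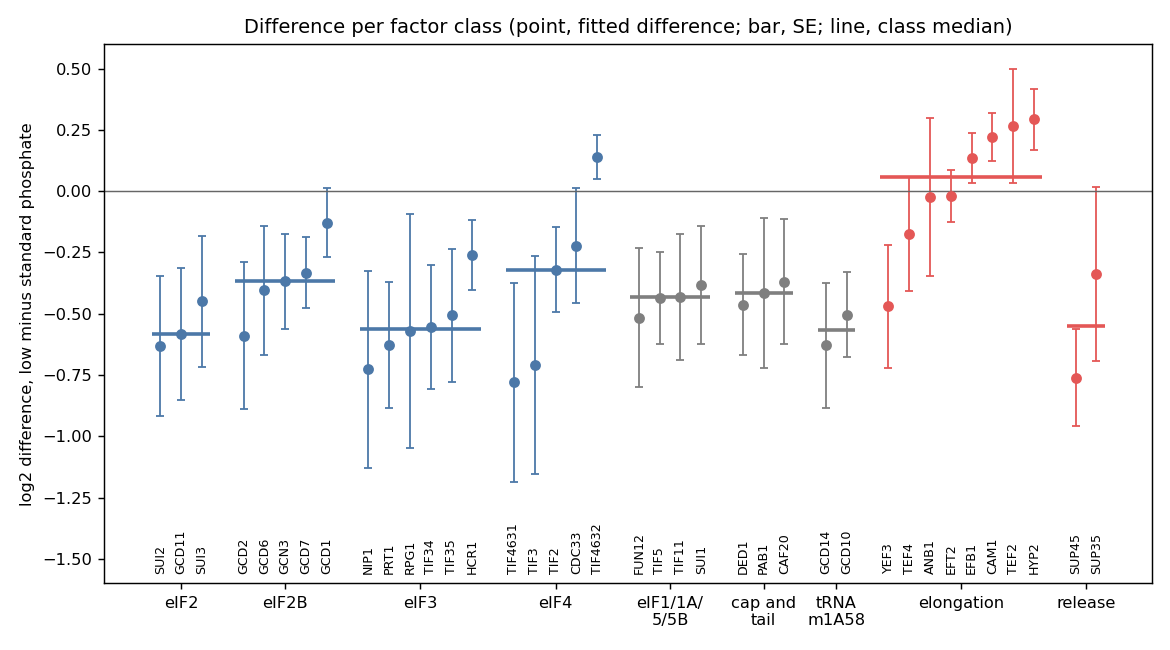
Difference in log2 ratio, low minus standard phosphate (y axis), of each measured factor by class, with the SE of the fit as bars and the class median as a horizontal line. The medians of eIF2, eIF2B, eIF3 and eIF4 lie at -0.582, -0.368, -0.564 and -0.321, that of the 8 elongation factors at 0.0566 and that of both release factors at -0.55.

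The elongation factors were split, with 4 of 8 lower and 4 higher and a class median of 0.0566. YEF3, the fungal factor eEF3, was the lowest, at 0.21 and -0.0081 in standard and at -0.054 and -0.69 in low phosphate, a difference of -0.47 ± 0.25 (SE, adjusted p 0.435), although the authors' deposited ratios gave 0.0122. When low phosphate array b was omitted, it was -0.154. The gap of YEF3 over its paralog HEF3 was -0.0178 and 0.361 in standard and 0.199 and 0.132 in low phosphate. This gap was higher in low phosphate between the arrays a and lower between the arrays b. Its means differed by -0.006 between the groups (exact two-sided permutation p 1). EFT2, which encodes the translocase eEF2, had practically the same ratios in both groups, 0.0083 and -0.17 in standard and -0.091 and -0.11 in low phosphate, and the 95% interval of its difference of -0.02 ran from -0.314 to 0.275. As EFT1 had no probe, this value may again stand for both genes of the pair. Both YEF3 and EFT2 had 2 nearly saturated spots of 8.

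Of the 4 genes measured for the delivery factor eEF1A and its exchange factor eEF1B, 3 had a higher mean in low phosphate, and of these TEF2 and EFB1 turned lower under 2 of the scalings. TEF2, for eEF1A, was at 0.26 and -0.21 in standard and at 0.096 and 0.49 in low phosphate. Its difference of 0.26 ± 0.23 had overlapping groups, turned to -0.169 when arrays were only centred on the median and to -0.338 with a spike-in loess curve, and came from a probe at the top of the brightness range (percentile 99.8) with 5 of 8 spots nearly saturated. EFB1, the exchange subunit of eEF1B, was at -0.12 and -0.26 in standard and at -0.021 and -0.09 in low phosphate, a difference of 0.133 ± 0.10 that turned to -0.155 and -0.275 under the same pair of scalings. CAM1, a gamma subunit of eEF1B, was at -0.068 and -0.185 in standard and at 0.063 and 0.125 in low phosphate. Its difference was 0.22 ± 0.097 (unadjusted p 0.0851, adjusted p 0.421), with both low arrays above both standard arrays, and it stayed between 0.162 and 0.329 under every processing and with every array left out. TEF4, the other gene for the gamma subunit, was at -0.18 and -0.20 in standard and at -0.062 and -0.67 in low phosphate, a difference of -0.18 ± 0.23 that turned to 0.128 without array b of low phosphate. The gap of CAM1 over TEF4 differed by 0.397 between the groups, with an exact two-sided permutation p of 0.333, the smallest possible.

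The genes of eIF5A, HYP2 and ANB1, are known to be expressed with and without oxygen, respectively. HYP2 had the highest difference of all 38 factors in the reported fit, from a probe at percentile 97.9 with 2 of 8 spots nearly saturated, with -0.003 and -0.24 in standard and 0.22 and 0.12 in low phosphate. The difference was 0.29 ± 0.125 (SE), with an unadjusted p of 0.0796 and an adjusted p of 0.421, the groups did not overlap, and the sign turned with loess on spike-in spots (-0.088). Other factors had the highest difference under some settings. CAM1 did with arrays centred on the median (0.329 against 0.0663), with spike-in loess (0.252) and with normexp offset 0 (0.247 against 0.218). TEF2 did without standard array a (0.50 against 0.412) and without low phosphate array a (0.46 against 0.241). Without low phosphate array b it was ANB1 (0.349 against 0.344). ANB1 separated by dye orientation and not by phosphate, with 0.068 and -0.39 in standard and 0.19 and -0.56 in low phosphate, and a difference of -0.025 ± 0.32. Its probe was bright, at percentile 94.5, and whether it also reads the HYP2 transcript was not tested. The gap of HYP2 over ANB1 differed by 0.317 between the groups (exact two-sided permutation p 0.667).

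Both release factors had a lower mean in low phosphate, and SUP45 the lower of them. SUP45, or eRF1, which reads the stop codon, was at 0.24 and 0.17 in standard and at -0.31 and -0.81 in low phosphate, so that both low arrays were well below both standard arrays. Its difference of -0.76 ± 0.198 (SE) was 1.69-fold, with a 95% interval of -1.31 to -0.209, an unadjusted p of 0.0187 and an adjusted p of 0.42. With low phosphate array b left out, its difference was -0.51, the lowest of the 38 factors in that setting, and it stayed between -0.768 and -0.626 under the 12 other processings. SUP35, the GTPase eRF3 that acts with it, was at 0.43 and -0.06 in standard and at 0.27 and -0.57 in low phosphate, a difference of -0.34 ± 0.355 with overlapping groups, and 0.0817 without array b of low phosphate.

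Set side by side, the eIF2, eIF2B, eIF3 and eIF4 subunits had a median difference of -0.507 (18 of 19 lower, TIF4632 being the exception) and the elongation and release factors one of -0.0222 (6 of 10 lower), a gap of -0.485. Groups did not overlap for 13 of the 19 initiation subunits downward and 1 upward, and for 2 of the 10 elongation and release factors downward (YEF3 and SUP45) and 3 upward, where all probes gave 26.8% downward and 26.5% upward. The counts of the elongation and release factors are thus near that background. The gap was present in both dye orientations, at -0.189 between the arrays a (medians -0.191 and -0.00227) and at -0.756 between the arrays b (medians -0.811 and -0.0554). On single arrays the initiation median minus the elongation and release median was 0.115 and 0.176 in standard and -0.107 and -0.349 in low phosphate, so that initiation subunits stood above the elongation and release factors on both standard arrays and below them on both low phosphate arrays. In the fit lacking low phosphate array b, the medians were -0.146 and 0.105, with a gap of -0.251. The factors were listed with earlier results of these data known, and no test was made of the gap.

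**Figure D3:**
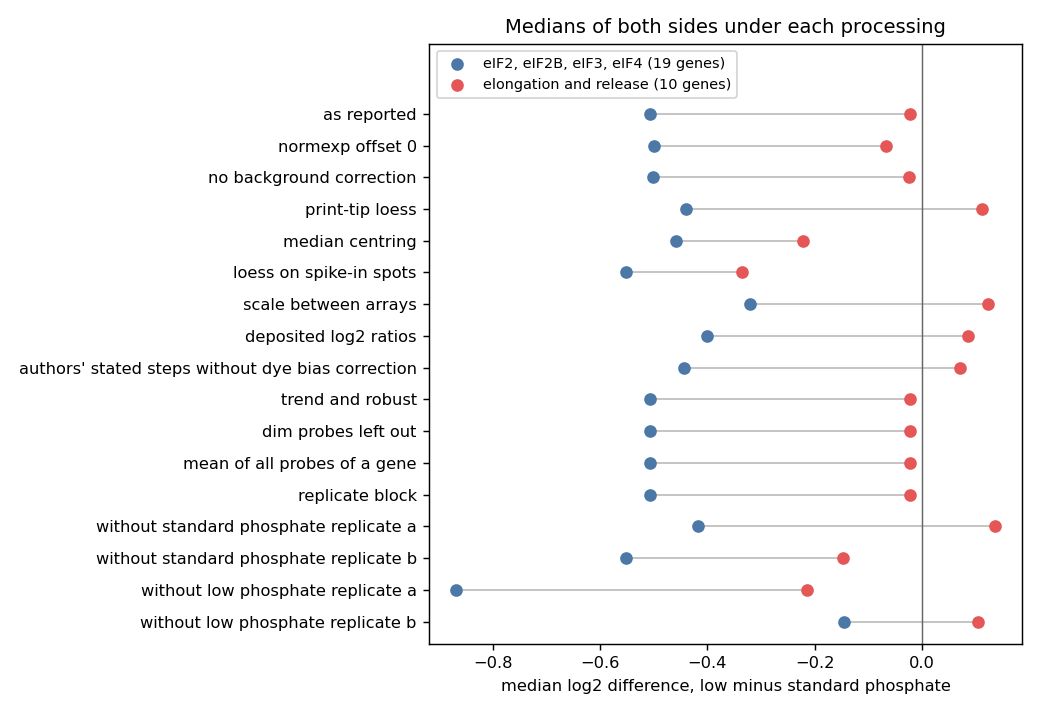
Median log2 difference, low minus standard phosphate (x axis), of 19 eIF2, eIF2B, eIF3 and eIF4 subunits (blue) and 10 elongation and release factors (red), as reported, under 12 other processings and with each array left out. Blue lies left of red in every line, from -0.868 to -0.146 for blue, and red lies on both sides of 0.

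The gap varied with the scaling of the ratios. It was -0.551 to -0.217 over the 12 other processings, and the smallest values came from centring on the median (-0.237) and from a loess curve drawn through the spike-in spots (-0.217). These also pulled the brightest elongation factors down, YEF3 to -0.724 and -0.875 and EFT2 to -0.34 and -0.482. The elongation and release factors were brighter than the initiation subunits, with median brightness percentiles of 97 and 87.9, and 4 of the 10 against 1 of the 19 had a nearly saturated spot. The part of brightness in the gap was not tested. Of the elongation and release factors no brighter than the brightest initiation subunit (TIF2, percentile 97.5), CAM1 was higher and TEF4, ANB1, SUP35 and SUP45 were lower, at -0.176, -0.0248, -0.339 and -0.761. Just above that percentile, EFB1 (97.6) and HYP2 (97.9) were higher, at 0.133 and 0.293. The brighter YEF3, EFT2 and TEF2 differed by -0.469, -0.0197 and 0.264 in the reported fit.

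**Figure D4:**
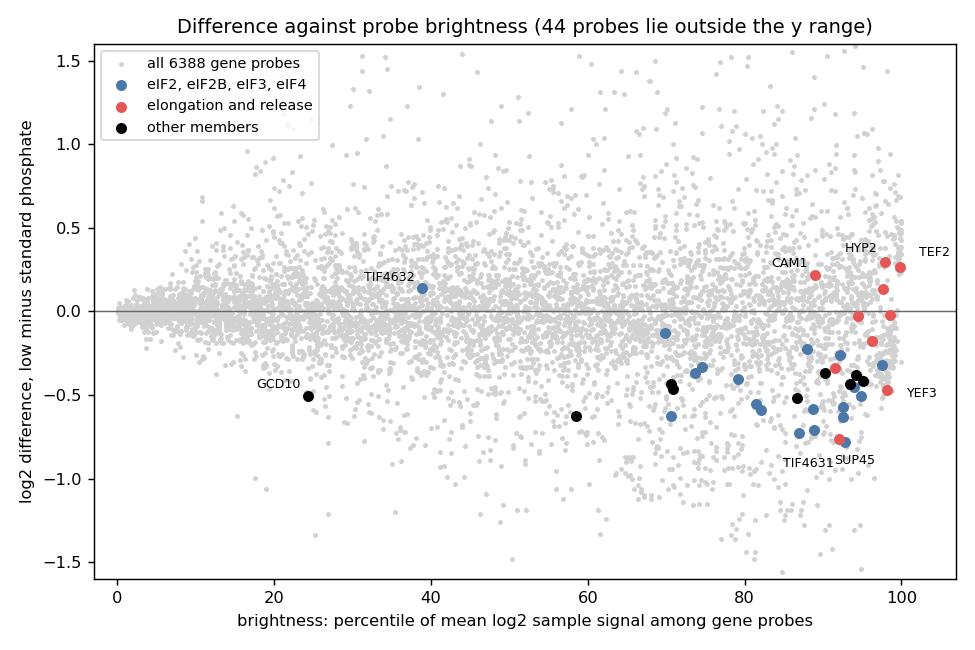
Difference in log2 ratio, low minus standard phosphate (y axis), against the brightness percentile of the probe (x axis) for all 6388 gene probes (grey, 44 outside the range shown) and the 38 factors in colour. Most factors lie in the brightest part of the array, where CAM1, HYP2 and TEF2 lie above 0 and TIF4631, SUP45 and YEF3 below it.

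Beyond the factors themselves, 50 genes that modify, assist or resemble them were listed, of which 43 had a probe. Of these, 33 were lower (50% of all probes) and 10 higher, with a median difference of -0.195. An unadjusted p under 0.05 was reached by 9 that were lower (5.13% of all probes) and 0 that were higher (6.34% of all probes). Both criteria of fold and p were met by 4 that were lower (1.47% of all probes). An adjusted p under 0.05 in limma was reached by 0 (0.0157% of all probes), the lowest adjusted p being 0.42. When low phosphate array b was omitted, 27 of the 43 were lower, with a median of -0.0791.

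The genes listed for modification of elongation factors stood lowest, 8 of 8 with a lower mean (50% of all probes) and a median of -0.728. These 8 serve diphthamide on eEF2 or hypusine on eIF5A, and DPH6 and EFM1 to EFM5 had no probe. The elongation factor transcripts had a median of 0.0566, and the difference between both lists was not tested. JJJ3, DPH1 and DPH2 take part in making diphthamide, the modified histidine of eEF2. JJJ3 was at 0.15 and 0.20 in standard and at -0.40 and -1.09 in low phosphate, a difference of -0.93 ± 0.26 (SE, unadjusted p 0.0237, adjusted p 0.42). DPH1 was at 0.26 and 0.27 in standard and at -0.18 and -0.96 in low phosphate, a difference of -0.84 ± 0.29 (unadjusted p 0.045). DPH2 was at -0.088 and -0.096 in standard and at -0.51 and -1.22 in low phosphate, a difference of -0.77 ± 0.265 (unadjusted p 0.0438). In each of the 3 the standard arrays nearly coincided and both low phosphate arrays lay below them (26.8% of all probes). KTI11, of the same pathway, differed by -0.683 (unadjusted p 0.0196), and DPH5, its methyltransferase, by -0.424. DYS1 and LIA1 make hypusine on eIF5A, and differed by -0.477 (unadjusted p 0.0484) and by -0.90 ± 0.50. Of the 8, 5 were lower at an unadjusted p under 0.05 (5.13% of all probes). RRT2, the last of the 8 and a diphthamide gene, differed by -0.124 with overlapping groups and was higher in low phosphate between the arrays a. With low phosphate array b left out, 6 of the 8 were lower with a median of -0.345, JJJ3, DPH1 and DPH2 being at -0.581, -0.445 and -0.419, DPH5 at 0.0109 and RRT2 at 0.0517.

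Among the partners of the release factors in mRNA surveillance, 5 of 8 were lower (50% of all probes) and 3 higher, with a median of -0.304. TPA1, a hydroxylase tied to translation termination, was at 0.15 and 0.16 in standard and at -0.38 and -1.08 in low phosphate, a difference of -0.88 ± 0.26 (unadjusted p 0.0288, adjusted p 0.42). NAM7, the Upf1 helicase of nonsense-mediated decay, differed by -0.335 (unadjusted p 0.0335). DOM34, which rescues stalled ribosomes, differed by -0.429, while its GTPase partner HBS1 was at 0.159 and the related SKI7 at 0.139. In the fit lacking low phosphate array b, the median was -0.114, with TPA1 at -0.531 and DOM34 at -0.238.

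The other lists lay closer to 0. The Gcn2 pathway senses amino acid starvation and phosphorylates eIF2. The 6 genes listed with it were GCN1, GCN2, GCN4, GCN20, YIH1 and CDC123, which acts in eIF2 assembly. Their median was -0.234, with the kinase gene GCN2 at 0.069. The activator gene GCN4, whose protein level is controlled mainly in translation, was at -0.387 ± 0.13 (unadjusted p 0.0394, adjusted p 0.42). The 14 paralogs and accessory factors had a median of -0.149, from -0.848 for SRO9, an RNA-binding protein, to 0.197 for DBP1, a relative of DED1 above background on 1 of 4 arrays. The 7 mitochondrial translation factors had a median of -0.0493, and array b of low phosphate was below array a in 0 of the 7 (48.9% of all probes). MEF2, which recycles mitochondrial ribosomes, was highest at 0.61 ± 0.23 (unadjusted p 0.0562), above background on 3 of 4 arrays. When low phosphate array b was omitted, the medians of these 3 lists were 0.0131, -0.0529 and -0.194, in the same order, with GCN4 at -0.296, SRO9 at -0.262 and MEF2 at 0.404.

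**Figure D5:**
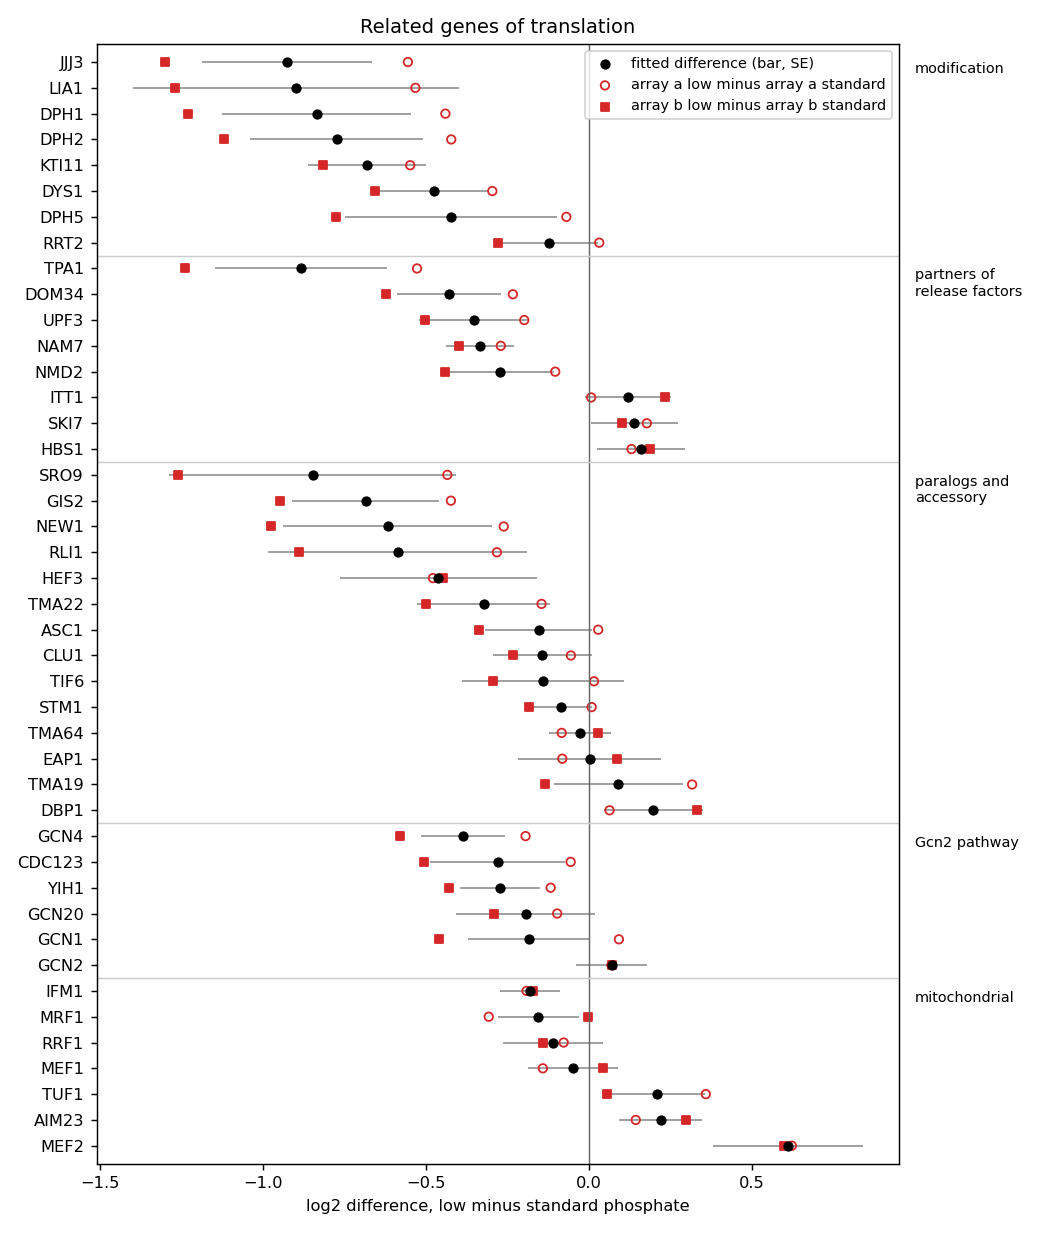
Difference in log2 ratio, low minus standard phosphate (x axis), of 43 related genes by list, as the fitted difference with its SE (black), between the arrays a (open circle) and between the arrays b (red square). The modification genes lie left of 0, with a median of -0.728, and the mitochondrial factors lie around 0, with a median of -0.0493.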

How the data were processed

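The authors scanned 2-colour arrays and deposited the mean spot intensity and median background intensity of each channel, without normalisation. They also deposited log2 ratios made with print-tip loess and a gene-specific dye bias correction (limma 2.12.0 per the labels), used here as an alternative. Columns of group ratios and p-values from the authors' own comparison were not used. Intensities were background corrected with normexp (offset 50) and normalised with loess on gene spots (span 0.3), ratios were turned to sample over reference, and the 2 spots of each probe were averaged. A spot above 32768 in either channel was called nearly saturated, and a probe over 2 times its background in both channels was called above background. Group means were fitted with limma 3.58.1 in R 4.3.3 over 4 arrays (residual degrees of freedom 2, prior 1.98). The limited number of arrays sets the precision.

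The members and lists were chosen with earlier results of these data known. Values on every array were to be given for factors over 1.7-fold with an unadjusted p under 0.05 (none), the 3 highest and 3 lowest, paralog pairs, and related genes past both thresholds. Those of SUI2, GCD11, SUI3, GCD2, GCD1, PRT1, TIF3, GCD10, YEF3, EFB1 and SUP35, and the names of other related genes, were added after their values were seen. TIF1, TEF1, EFT1, SGN1, DPH6 and EFM1 to EFM5 had no probe under these symbols. Gene positions are not given because the genome build is not given in the sources used here. Alternatives concerned background correction, normalisation, dim probes, the variance prior, probe averaging, the replicate block and each array left out.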

Additional observations from a re-analysis of the deposited data

How the results depend on the processing

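The median over all factors stayed below 0 under all 16 alternatives, from -0.472 to -0.261 over 12 processings and from -0.732 to -0.119 with an array left out. The median of the initiation subunits ran from -0.868 to -0.146 with an array left out. The median of the elongation and release factors turned to 0.111 with print-tip loess, 0.123 with scaling between arrays, 0.0865 in the deposited log2 ratios and 0.0711 with the authors' stated steps without dye bias correction, moved to -0.335 with loess on spike-in spots, and ran from -0.214 to 0.137 with an array left out (0.105 without low phosphate array b). The gap between both medians was -0.237 with median centring, -0.217 with loess on spike-in spots and -0.654 to -0.251 with an array left out. The count over 1.7-fold lower with an unadjusted p under 0.05 was 2 with normexp offset 0, 2 with loess on spike-in spots and 0 to 17 with an array left out, and the count at an adjusted p under 0.05 was 0 to 29. Of all probes, 2.68% met both criteria downward with normexp offset 0 and 3.41% with loess on spike-in spots, against 1.47% in the reported fit. The counts of 17 and 29 came without low phosphate array a, where the shares of all probes, given above, were also higher. Fitted with the replicate letter as a block, 1 factor was over 1.7-fold lower with an unadjusted p under 0.05 (2.58% of all probes). In that fit none passed the adjusted test. The letters mark dye orientation, and deviations of a from b correlated between groups at 0.277 over 6388 probes, with only 2 pairs. Single factors turned as follows, and the cause was not tested. ANB1 was at 0.144 with print-tip loess, 0.0208 with median centring, 0.209 with scaling, 0.204 in the deposited ratios, 0.147 with the authors' steps and -0.399 to 0.349 with an array left out. EFT2 was at 0.0768 with print-tip loess, 0.0377 with scaling, 0.0498 with the authors' steps and -0.109 to 0.0699 with an array left out. TEF4 was at 0.0113 with scaling and -0.481 to 0.128 with an array left out, TEF2 at -0.169 with median centring and -0.338 with spike-in loess, and HYP2 at -0.088 with spike-in loess. Of the 38 factors, 25 were lower and 2 higher (TIF4632 and CAM1) under every alternative that could be fitted. The related genes were refitted with each array left out as a choice made after seeing the data, with medians of -0.42 to -0.0791.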
